A study of Homo sapiens with 4 samples.

Results

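Among the chromatin regions that were open in every library, 1092 ranked lower in the HL-60 cells treated with all-trans retinoic acid (ATRA) than in the control cells. They were found by joining all peaks of the 4 ATAC-seq peak lists that shared at least 1 bp, which gave 78063 regions, and keeping the 23653 regions that had a peak in each list. Every peak was given a percentile, its rank by the deposited peak score within its own list, so that a percentile of 100 is the highest-scoring peak of that library. A region was taken as lower after ATRA when the lower of its 2 control percentiles exceeded the higher of its 2 ATRA percentiles by at least 10 points. The distance between these 2 percentiles is referred to as the gap. The members are therefore 4.62% of the shared regions and were selected on the values that separate the groups, so their percentiles and gaps are given as a description, with no test.

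HL-60 is an established human promyelocytic leukemia cell line, and ATRA drives these cells along the granulocyte lineage. The ATRA group received 1 µM ATRA and the control group its solvent, ethanol, both for 4 days, and each group had 2 replicates. The medium was renewed, with its ATRA or ethanol, midway through the treatment. All 4 libraries come from this 1 cell line, no genotype differs between the groups, and the study describes the replicates as biological and independent. ATAC-seq uses the Tn5 transposase, which cuts open DNA and inserts sequencing adapters there. Of the myeloid marker genes checked, SPI1, PTPRC and CD33 had a promoter peak in 4 of 4 lists, whereas MPO had one in 2 lists, PRTN3 in 1, and ELANE and AZU1 in none. The erythroid markers HBA1, ALAS2, GATA1 and KLF1 and the T cell markers CD3D and CD3E had none.

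Open regions away from promoters are mostly enhancers and other regulatory sites, where sequence-specific transcription factors keep nucleosomes off the DNA. GATA factors bind the core A/T-GATA-A, with GATA2 acting in blood stem and progenitor cells and GATA1 in erythroid cells and megakaryocytes. RUNX and C/EBP factors and PU.1 act together at myeloid enhancers, and promoters of housekeeping genes are typically GC-rich and bound by SP, NFY and ETS factors. As promyelocytes mature, genes of the progenitor state are shut down while granule and antimicrobial genes are turned on.

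Sequences are shown for the 7 members with the widest gaps, 67.9 to 81.1 points against a median of 18.7 in all members. They are the extreme of the set and do not stand for a typical member. Each sequence is the central 160 bp on the plus strand of GRCh37. Capitals mark GATA words (AGATAA or TGATAA, on either strand) and, where present, RUNX (AACCACA), C/EBP (TTGCNNAA), PU.1 (GAGGAAGT), AP-1 (TGAGTCA or TGACTCA) and bHLH E-box (CAGCTG) words. The NTPCR region holds 3 GATA words within this stretch and the CXCR4 region 2, while the GRB10 and ZNRF1 stretches hold none of the words marked. Regions are named by the gene that holds them, or else by the nearest transcription start site (TSS) of a protein-coding gene.
GRB10 intron, chr7:50764645-50764804: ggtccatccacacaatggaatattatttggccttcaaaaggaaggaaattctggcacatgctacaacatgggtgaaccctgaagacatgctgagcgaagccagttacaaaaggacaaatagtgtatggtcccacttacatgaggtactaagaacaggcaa
ZBTB16 intron, chr11:113953672-113953831: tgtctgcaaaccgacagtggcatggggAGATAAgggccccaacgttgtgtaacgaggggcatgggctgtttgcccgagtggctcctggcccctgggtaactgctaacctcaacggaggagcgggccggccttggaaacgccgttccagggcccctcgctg
FSD2 intron, chr15:83471356-83471515: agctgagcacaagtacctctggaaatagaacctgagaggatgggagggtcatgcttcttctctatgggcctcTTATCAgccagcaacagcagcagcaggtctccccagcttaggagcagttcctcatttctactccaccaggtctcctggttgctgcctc
CXCR4, intergenic, chr2:137080137-137080296: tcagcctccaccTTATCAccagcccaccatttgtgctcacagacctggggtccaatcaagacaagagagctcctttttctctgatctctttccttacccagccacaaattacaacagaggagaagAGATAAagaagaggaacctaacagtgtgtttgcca
OTOL1, intergenic, chr3:162155376-162155535: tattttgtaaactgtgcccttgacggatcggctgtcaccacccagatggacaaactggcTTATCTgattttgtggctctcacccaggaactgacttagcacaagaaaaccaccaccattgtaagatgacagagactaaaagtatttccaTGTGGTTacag
NTPCR, intergenic, chr1:233073784-233073943: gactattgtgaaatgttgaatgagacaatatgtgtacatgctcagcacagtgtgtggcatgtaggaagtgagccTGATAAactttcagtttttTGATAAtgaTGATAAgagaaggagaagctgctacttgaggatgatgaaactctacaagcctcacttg
ZNRF1 intron, chr16:75076762-75076921: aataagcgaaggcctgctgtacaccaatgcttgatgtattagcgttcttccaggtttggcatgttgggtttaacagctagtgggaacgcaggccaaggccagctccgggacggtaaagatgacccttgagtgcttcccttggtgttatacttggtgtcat

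By the choice of the rule, the members ranked somewhat above the shared regions as a whole in the control cells and well below them after ATRA. Their median percentile was 76.4 in control replicate 1 and 77.9 in control replicate 2, compared with 34.3 in ATRA replicate 1 and 44.1 in ATRA replicate 2. In the same order, the medians of all shared regions were 68.2, 70.5, 68.9 and 79.2. The peaks themselves were narrower in ATRA replicate 1, with a median width of 302 bp against 445 and 426 bp in the control libraries. In ATRA replicate 2 it was 427 bp, in a library whose peaks were wider throughout. The gap had a median of 18.7 points and reached 81.1. It was under 20 points in 597 members, between 20 and 30 in 264, and at least 60 in 25. Both control percentiles were at 75 or more in 491 members, and both ATRA percentiles were below 50 in 571. Both ATRA percentiles were still at 75 or more in 27 members. Only 19 members had both control percentiles at 75 or more and both ATRA percentiles at 25 or less, a stricter ATRA limit than 50. By the rule each member kept a peak in both ATRA lists, so none was lost altogether.

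**Figure D1:**
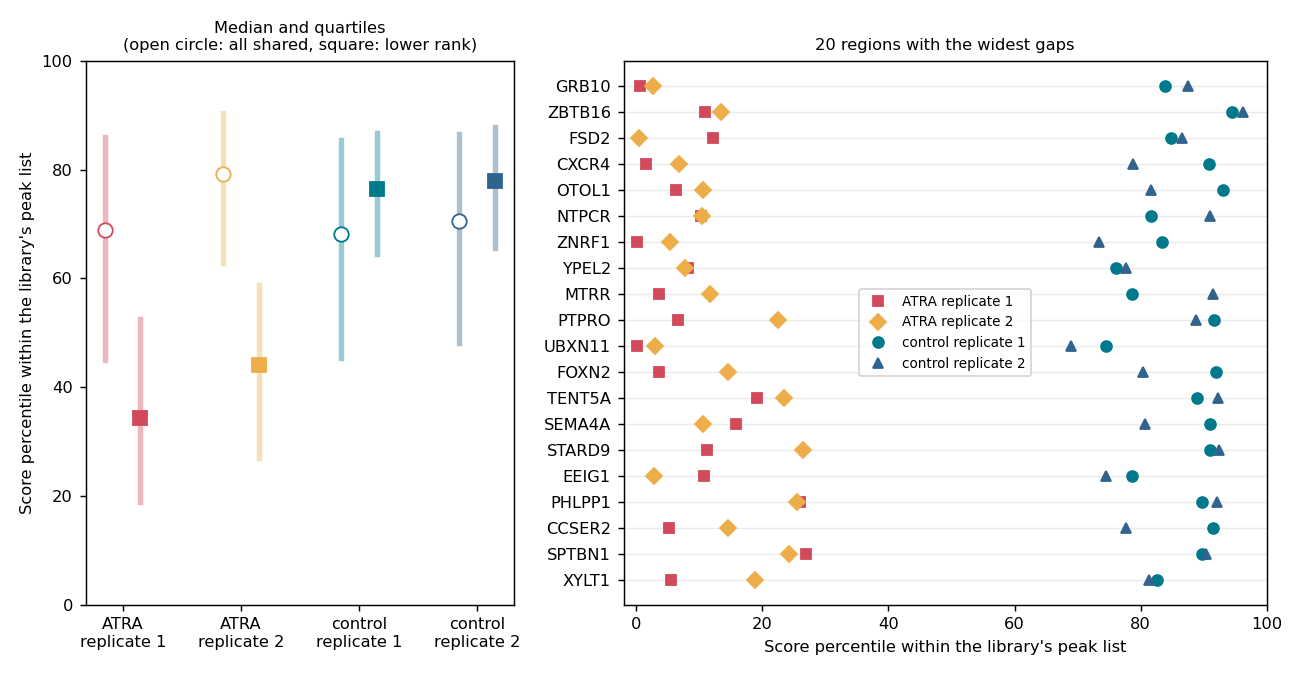
Score percentiles within each library's peak list. Left: median (symbol) and quartiles (bar) of all 23653 shared regions (open circles) and of the 1092 regions with lower rank after ATRA (squares), by library; the squares lie at 34.3 and 44.1 in the ATRA libraries and at 76.4 and 77.9 in the control libraries. Right: the percentile in each library (1 symbol per library) of the 20 regions with the widest gaps, in which the ATRA and control symbols do not overlap, as the rule requires.

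ATRA replicate 2 stood apart from the other lists and bears on how many regions qualified. It held 63541 peaks and the others 42081 to 45903, and the peaks were 416 bp wide in the median against 291 to 328 bp. The shared regions as a whole sat higher in its list, with a median percentile of 79.2 compared with 68.2 to 70.5 elsewhere. ATRA replicate 2 gave the higher of the ATRA percentiles, the one that decided the gap, in 704 members (64.5%). The mirror rule, which asks for the lower ATRA percentile to lie at least 10 points above the higher control percentile, found 2759 regions, 11.7% of the shared regions. This imbalance depended on the percentile. When regions were ranked among the shared regions only, 2276 were lower and 2272 higher after ATRA, and 1039 of the 1092 members were kept. Taking an equal number of peaks from each list gave 1768 lower and 1856 higher regions. Without ATRA replicate 2, 4760 regions were lower and 3500 higher, so the imbalance turned round. Without ATRA replicate 1, control replicate 1 or control replicate 2 in turn, 2561, 3009 and 2226 were lower and 6937, 7103 and 6759 higher.

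The widest gap was in an intron of GRB10, which encodes an adaptor protein of insulin and growth factor receptors. The region at chr7:50764410-50765129 had percentiles of 0.609 and 2.71 in ATRA replicates 1 and 2, and of 83.8 and 87.5 in control replicates 1 and 2. It was thus among the weakest peaks of both ATRA lists and ranked high in both control lists, with a gap of 81.1 points.

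The region next in order lay in an intron of ZBTB16, which encodes the transcriptional repressor PLZF of stem and progenitor cells. It spanned chr11:113952866-113954692, with its centre 24.0 kb downstream of the gene's 5′ end. Its percentiles were 10.9 and 13.5 in the ATRA libraries and 94.4 and 96.3 in the control libraries, and its peak narrowed from 1709 and 1727 bp in the control libraries to 275 and 418 bp after ATRA. The promoter of the same gene was also a member. At chr11:113929843-113930615 it had percentiles of 27.6 and 1.35 after ATRA and of 80.9 and 85.7 in the control cells. These were the only shared regions within 50 kb of a ZBTB16 TSS, and both were members. In the view from 15 kb before to 60 kb after the 5′ end there were 6 further regions that were not in all lists, and none of them had a peak in an ATRA library.

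The other members with the widest gaps were scattered over genes of varied function. Of the 20 with the widest gaps, 11 lay in introns, 7 between genes, 1 in an exon (PHLPP1, a phosphatase of the AKT pathway) and 1 at a promoter. That promoter was of SEMA4A, a semaphorin of immune cells, with percentiles of 15.9 and 10.6 after ATRA against 90.9 and 80.6. The region named for CXCR4, the chemokine receptor that holds blood cells in the marrow, lay 203470 bp upstream of its TSS, so the name is a position only. It had percentiles of 1.58 and 6.73 after ATRA and of 90.9 and 78.7 in the control cells. Introns of FSD2, ZNRF1 (an E3 ubiquitin ligase), PTPRO (a receptor tyrosine phosphatase), UBXN11, STARD9, EEIG1, CCSER2, SPTBN1 (a spectrin) and XYLT1 held other members of the 20. The intergenic ones were nearest to OTOL1, NTPCR, YPEL2, MTRR, FOXN2 and TENT5A. In 13 of the 20, the percentile was below 10 in at least 1 ATRA library, so these regions were close to the lower end of that list.

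At the edge of the rule, 92 members had a gap of 10 to 11 points and 94 regions just missed it with 9 to 10. Just inside were an intron of SGMS1 (50.0 and 47.3 after ATRA, 64.8 and 60.003 in the control cells), a region upstream of CD38 (86.3 and 87.9 against 97.9 and 98.0) and one upstream of FGF1 (24.3 and 41.4 against 63.1 and 51.4). Just outside were the MAN1A1 promoter (49.7 and 27.1 against 59.7 and 63.4), an intron of AFF1 (73.5 and 84.6 against 94.6 and 95.3) and an intron of GABBR2 (30.7 and 59.6 against 75.9 and 69.6). These regions differ little across the margin, so membership near it is a matter of the threshold.

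Since the rule used all libraries, the replicate pairs were also described separately. Here a region was chosen when control exceeded ATRA by at least 10 points in one replicate number and was then read in the other. Percentiles of the other number had no part in the choice. Its lists did have a part, because a shared region needs a peak in all 4 lists. Of 3267 regions chosen on replicate 2, 70.9% were also lower after ATRA in replicate 1, with a median difference of 13.4 points. Among all shared regions 48.6% were lower in replicate 1, with a median difference of -0.28 points. Of 6104 regions chosen on replicate 1, 51.2% were lower after ATRA in replicate 2, against 32.4% of all shared regions, and the median difference was 0.57 points against -5.07. In either direction the chosen regions were more often lower than the shared regions as a whole, and 1819 regions reached 10 points in both. By the form of the rule these 1819 include all 1092 members. The chosen regions were not matched to the shared regions in location or GC content. These values therefore describe the same libraries again and give no independent support. The replicate number only names these libraries, and regions are not replicates of the treatment.

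The members were mainly distal. A promoter was called when the centre lay between 1 kb upstream and 100 bp downstream of a protein-coding TSS. Only 82 members (7.51%, 95% Wilson interval 6.09 to 9.23) were at promoters, compared with 30.6% (30.1 to 31.2) of all shared regions and 27.5% (25.9 to 29.2) of those that ranked higher after ATRA. Without control replicate 2 the promoter share of the regions that qualified was 16.4%, against 30.1% of the regions then shared. A total of 483 members (44.2%) lay in introns, 490 (44.9%) between genes and 37 (3.39%) in exons. Read the other way, 1.13% of the 7247 shared promoter regions were members, against 6.74% of the intronic and 5.74% of the intergenic ones. For the regions of higher rank the same shares were 10.5%, 13.1% and 11.4%. The promoter share was also low in regions that were not in all lists, at 4.48% of those in both control lists and no ATRA list and 7.83% of those in both ATRA lists and no control list. A low share was therefore not particular to the members. The median distance from a member to the nearest TSS was 27162 bp, against 12020 bp for all shared regions. Outside promoters these distances were 33250 and 31167 bp, a much smaller difference. Intervals cover counting error across regions only.

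The sequence composition of the members differed along with their location. The median GC content of the central 200 bp was 47.3% in the members and 52.5% in all shared regions. Outside promoters it was 46.5% and 48.0%. Of the shared regions with a GC content of 40 to 45%, 7.43% were members, and of those with 70% or more, 1.00% were. Outside promoters the share was 7.59% at 40 to 45% and 4.02% at 60 to 70%, so the decline with GC content was also present there. The share of regions with higher rank changed less over the same range, from 13.4% to 11.1%. Whether GC content affected the scores of these libraries differently was not tested.

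**Figure D2:**
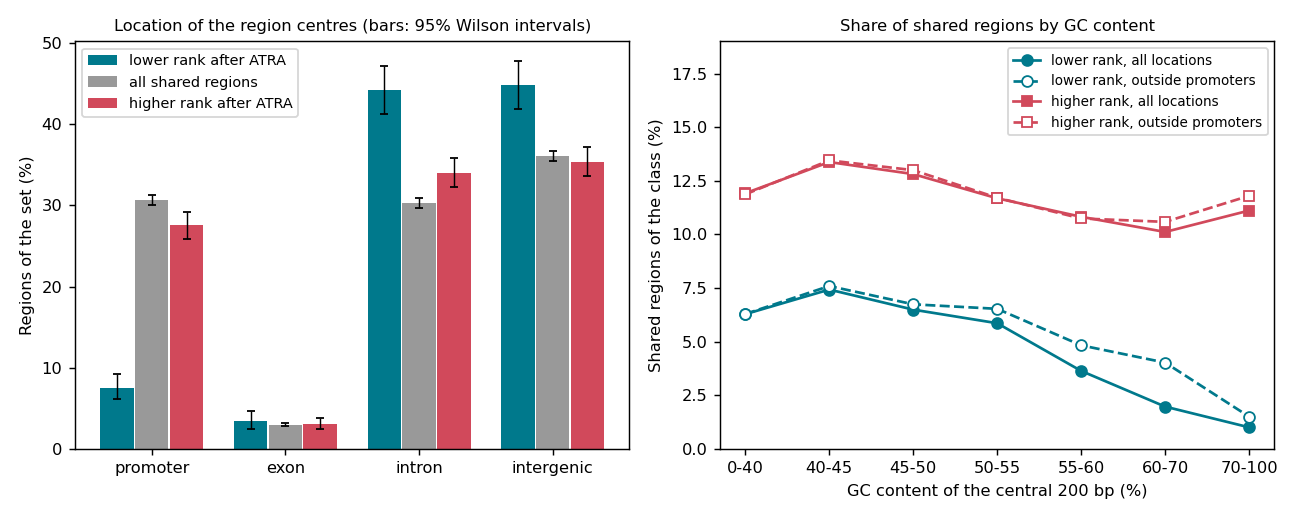
Left: share of regions (%) at promoters, in exons, in introns and between genes, for the 1092 regions with lower rank after ATRA, all 23653 shared regions and the 2759 regions with higher rank; error bars are 95% Wilson intervals, and the promoter bar is 7.51% for the lower set against 30.6% of all shared regions. Right: share of shared regions (%) with lower or higher rank by GC content of the central 200 bp (%), for all locations (filled) and outside promoters (open); the lower-rank share falls from 7.43% at 40 to 45% GC to 1.00% at 70% or more.

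The promoters among the members, ordered by gap, were led by those of SEMA4A, ZBTB16, PLA2G2C, NFE2L2, the pair IL18R1 and IL1RL1, GCN1, DOCK10 and CD72. They were named after their values were seen. NFE2L2, which encodes the oxidative stress regulator NRF2, had percentiles of 25.3 and 22.6 after ATRA and of 86.2 and 75.4 in the control cells. The promoter of CD72, a B cell surface protein, had 50.6 and 50.3 after ATRA and 91.4 and 94.7 in the control cells. Further down, the promoter of SPP1, which encodes the secreted protein osteopontin, went from 83.5 and 87.4 in the control cells to 47.2 and 43.1. In these promoters the libraries of each group lay closer to each other than to the other group, as the rule favours.

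Of the 15 words searched, GATA differed most, in percentage points, between the members and all shared regions. It was found in the central 200 bp of 375 members (34.3%, 95% Wilson interval 31.6 to 37.2), compared with 14.6% (14.1 to 15.0) of all shared regions and 12.5% (11.3 to 13.8) of the regions with higher rank. The same letters reversed, which keep the base composition, were found in 13.0%, 11.2% and 11.9% of these sets. A total of 123 members (11.3%) had at least 2 GATA words, against 2.30% of all shared regions. Outside promoters the shares were 36.4% of the members and 19.2% of the shared regions. The difference was also seen within ranges of GC content outside promoters. Below 45% GC the shares were 49.9% and 30.6%, from 45 to 55% they were 33.6% and 18.0%, and from 55% upward 11.7% and 5.34%.

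GATA words lay near the centres of the members. There were 26.8 words per 100 members within 50 bp of the centre and 14.1 at 250 to 300 bp. In all shared regions the corresponding values were 8.47 and 10.1, with no rise toward the centre. The share also followed the size of the gap. It was 28.5% in members with a gap of 10 to 20 points, 35.6% at 20 to 30, 43.9% at 30 to 40, and 15 of the 25 members at 60 or more had it. Over all shared regions, ordered by the mean control minus the mean ATRA percentile, the GATA share was 11.9% where ATRA was higher by at least 40 points and 42.3% where control was higher by at least 40 points. The reversed word changed from 11.9% to 14.1% over that range. Regions with a peak in both control lists and in no ATRA list, which the rule did not use, held a GATA word in 44.2% of 2633 cases. The 6976 regions with a peak in both ATRA lists and in no control list held it in 13.8%. A word match describes the sequence and does not show that a factor was bound.

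**Figure D3:**
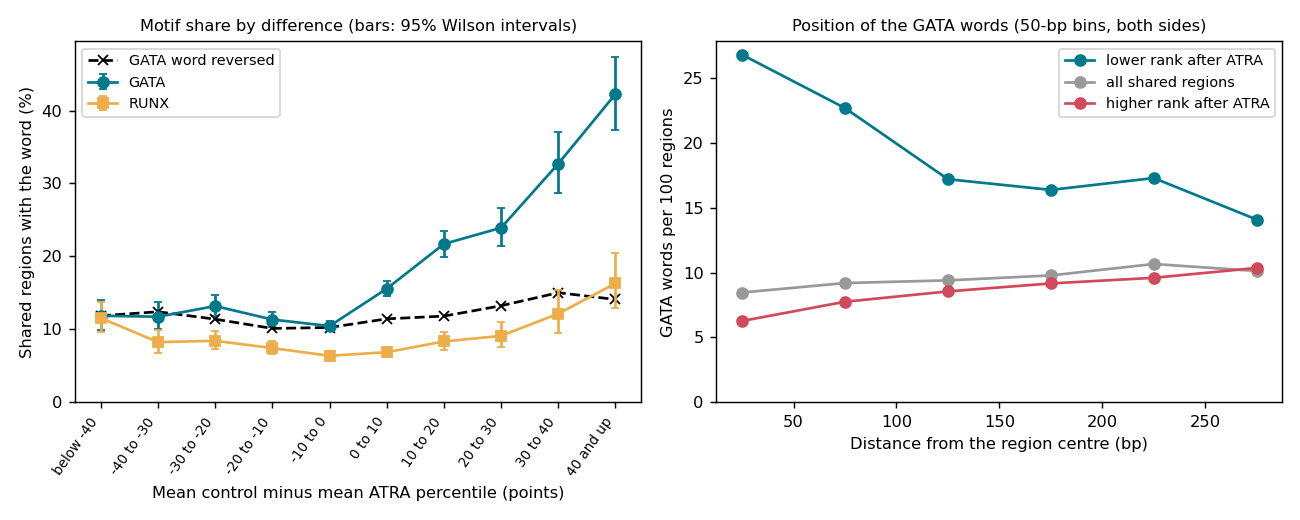
Left: share of shared regions (%) with a GATA word (AGATAA or TGATAA), its reversed letters or a RUNX word in the central 200 bp, by the mean control minus the mean ATRA percentile (points); error bars are 95% Wilson intervals, and the GATA share rises from 11.9% to 42.3% from left to right while the reversed word stays between 10.1% and 15.0%. Right: GATA words per 100 regions in 50-bp bins of distance from the region centre (bp) for the same 3 sets; the lower-rank set falls from 26.8 to 14.1.

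Words of 4 other factor families were also more frequent in the members than in all shared regions, though by less. The RUNX word (AACCACA) was found in 156 members (14.3%, 12.3 to 16.5) and in 7.67% of all shared regions. The C/EBP word (TTGCNNAA) was in 15.5% against 10.7%, the AP-1 word in 7.69% against 5.17% and the bHLH E-box (CAGCTG) in 16.5% against 13.2%. A total of 547 members (50.1%) held a GATA, RUNX or C/EBP word, compared with 28.0% of the shared regions. Outside promoters all these words were more common among the shared regions. The shares there were 14.8% against 9.99% for RUNX, 16.3% against 13.5% for C/EBP and 16.4% against 14.0% for the bHLH E-box. For AP-1 they were 8.02% (6.50 to 9.86) against 6.73%, within the interval, and the regions of higher rank had 8.30%. The regions of higher rank outside promoters had 12.5% for RUNX and 15.2% for C/EBP, so these words distinguished the direction less than GATA did. RUNX words were about as frequent in members with a GATA word (15.5%) as in those without (13.7%).

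Some words were no more frequent or were rarer in the members. The PU.1 word (GAGGAAGT) was in 7.78% of the members and 7.24% of all shared regions, while the regions of higher rank had 11.2%. Outside promoters the PU.1 share was 8.02% in the members, 9.47% in the shared regions and 14.5% in those of higher rank, so this word leaned the other way. CTCF, the insulator protein, had its word in 5.04% of the members and 6.95% of all shared regions, and outside promoters in 5.35% and 9.56%. The regions of higher rank had 4.13%, and 5.40% outside promoters, so a low CTCF share was not particular to the members. The promoter words were rare: the GC box (GGGCGG) was in 8.97% against 25.5% and the ETS word (CCGGAAGT) in 0.549% against 2.82%. The NFY word (CCAAT) was in 22.8% against 25.9%. Outside promoters these shares were 6.34% against 10.6% for the GC box, 0.396% against 0.713% for ETS and 22.9% against 22.6% for NFY, so the differences were smaller there. The MYB word (C or T, then AACGG or AACTG) was in 24.5% against 20.8%, but its reversed letters were in 24.1% of the members, so it did not exceed its own control. The IRF word was in 5.04% against 4.73% and the E-box (CACGTG) in 5.13% against 5.27%. The HOX-PBX word (TGATTTAT) was in 4 members (0.366%), against 0.410% of all shared regions. The DR5 repeat, to which retinoic acid receptors bind, was in 0 of 1092 members, with a Wilson upper limit of 0.351%. It was in 9 of all shared regions (0.038%), and its reversed letters were in 19. The word is too rare for its absence from the members to be read.

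**Figure D4:**
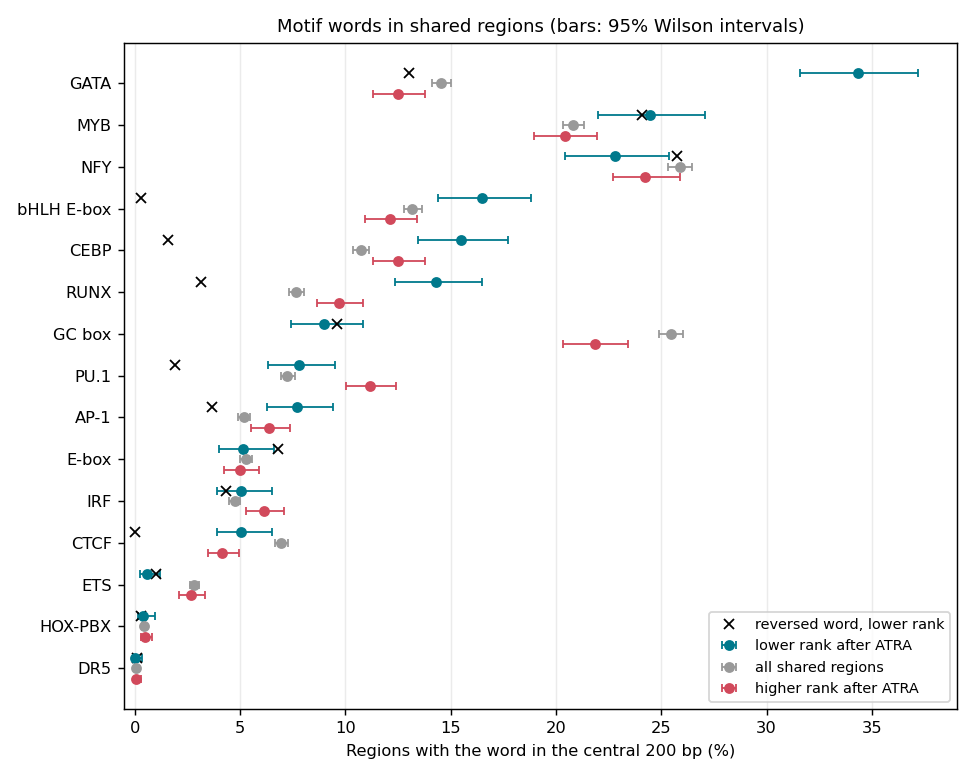
Share of regions (%) with each of 15 motif words in the central 200 bp, for the regions with lower rank after ATRA, all shared regions and the regions with higher rank after ATRA; bars are 95% Wilson intervals, and crosses give the reversed word in the lower-rank set. GATA stands furthest from the other sets, at 34.3% against 14.6% of all shared regions and 13.0% for the reversed word.

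Genes of the progenitor state were among those near the members. A gene was linked to regions within 50 kb of any of its TSS. Of 15447 protein-coding genes with a shared region in that range, 1174 (7.6%) had a member and 4081 (26.4%) had a region of higher rank. Of 18 listed progenitor genes, 15 had a shared region and 6 had a member, while 6 had a region of higher rank. Members made up 10 of the 51 shared regions near these genes, and regions of higher rank made up 6. Over all shared regions these shares were 4.62% and 11.7%. Of the genes with a member, CD34, LMO2 and RUNX1 also had 1 region of higher rank each, while KIT, MYC and MSI2 had 1 region of higher rank each and no member. GATA2 itself had no region shared by all lists within 50 kb. The list was drawn up with earlier results of these data known, and nothing about progenitor genes in general is read from these counts.

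CD34, the surface antigen of stem and progenitor cells, had 2 members among its 6 shared regions, and 1 of the others was of higher rank after ATRA. The one 23973 bp upstream had percentiles of 62.3 and 64.7 after ATRA and of 96.5 and 93.9 in the control cells. The other, past the gene's 3′ end at chr1:208046084-208047254, had 73.6 and 65.3 after ATRA and 94.8 and 96.6 in the control cells. Both were thus still in the upper part of the ATRA lists, in which the shared regions had median percentiles of 68.9 and 79.2. Of the ATRA values of these members, only 73.6 in ATRA replicate 1 lay above that median.

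FLT3, a receptor tyrosine kinase of progenitors, had a member in an intron with percentiles of 34.4 and 72.3 after ATRA and 92.6 and 92.1 in the control cells. The ATRA replicates of this region differed more from each other than its gap. LMO2, a cofactor of GATA and TAL1 complexes, had a member 1872 bp upstream of a TSS, at 41.9 and 28.4 against 88.1 and 71.5. RUNX1, a regulator of blood cell development, had 2 intronic members. The first stood at 47.5 and 41.8 after ATRA against 60.3 and 61.8, and the second at 76.1 and 64.9 against 87.8 and 86.4. IKZF1, which encodes the lymphoid and progenitor factor Ikaros, had 2 members upstream, at 46.7 and 29.6 against 57.7 and 70.2 and at 39.7 and 74.8 against 86.3 and 85.6. A further member lay in an IKZF1 exon 93.6 kb into the gene, further than 50 kb from its TSS.

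The MYB locus, chosen after its values were seen, had members outside the 50 kb range. MYB encodes a transcription factor that keeps blood progenitors immature. In the span from 20 kb before to 260 kb after its 5′ end, which takes in the neighboring gene AHI1, 4 of 7 shared regions were members. They lay 99.6, 105.9, 142.0 and 242.5 kb downstream of the MYB 5′ end, the last 3 within AHI1. Each held at least 1 GATA word in its central 200 bp. The member at 105.9 kb fell the most, from 71.8 and 73.5 in the control cells to 12.1 and 9.25. That at 142.0 kb was among the strongest control peaks, at 98.9 and 97.8, and had 57.0 and 18.9 after ATRA. The 3 other shared regions lay within the MYB gene, where none reached the margin. A further 13 regions of the span were not in all lists, and they went both ways. Those at -4.66 kb (before the 5′ end) and at 129.2 kb had peaks in both ATRA lists and no control list. That at -7.63 kb had peaks in both control lists and no ATRA list. The region at 125.7 kb stood at 43.5 and 66.4 after ATRA and at 11.7 in control replicate 2 only. The members at 99.6 and 142.0 kb are shown because of the GATA words near their centres, as the central 160 bp on the plus strand of GRCh37, with capitals marking the same words as above.
99.6 kb downstream of the MYB 5′ end, chr6:135601970-135602129: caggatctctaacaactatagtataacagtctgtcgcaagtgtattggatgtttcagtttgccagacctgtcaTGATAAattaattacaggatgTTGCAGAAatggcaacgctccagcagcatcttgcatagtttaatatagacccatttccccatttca
142.0 kb downstream of the MYB 5′ end, chr6:135644347-135644506: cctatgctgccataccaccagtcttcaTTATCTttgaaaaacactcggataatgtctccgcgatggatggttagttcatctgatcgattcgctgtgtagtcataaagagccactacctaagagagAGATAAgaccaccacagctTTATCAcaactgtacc

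**Figure D5:**
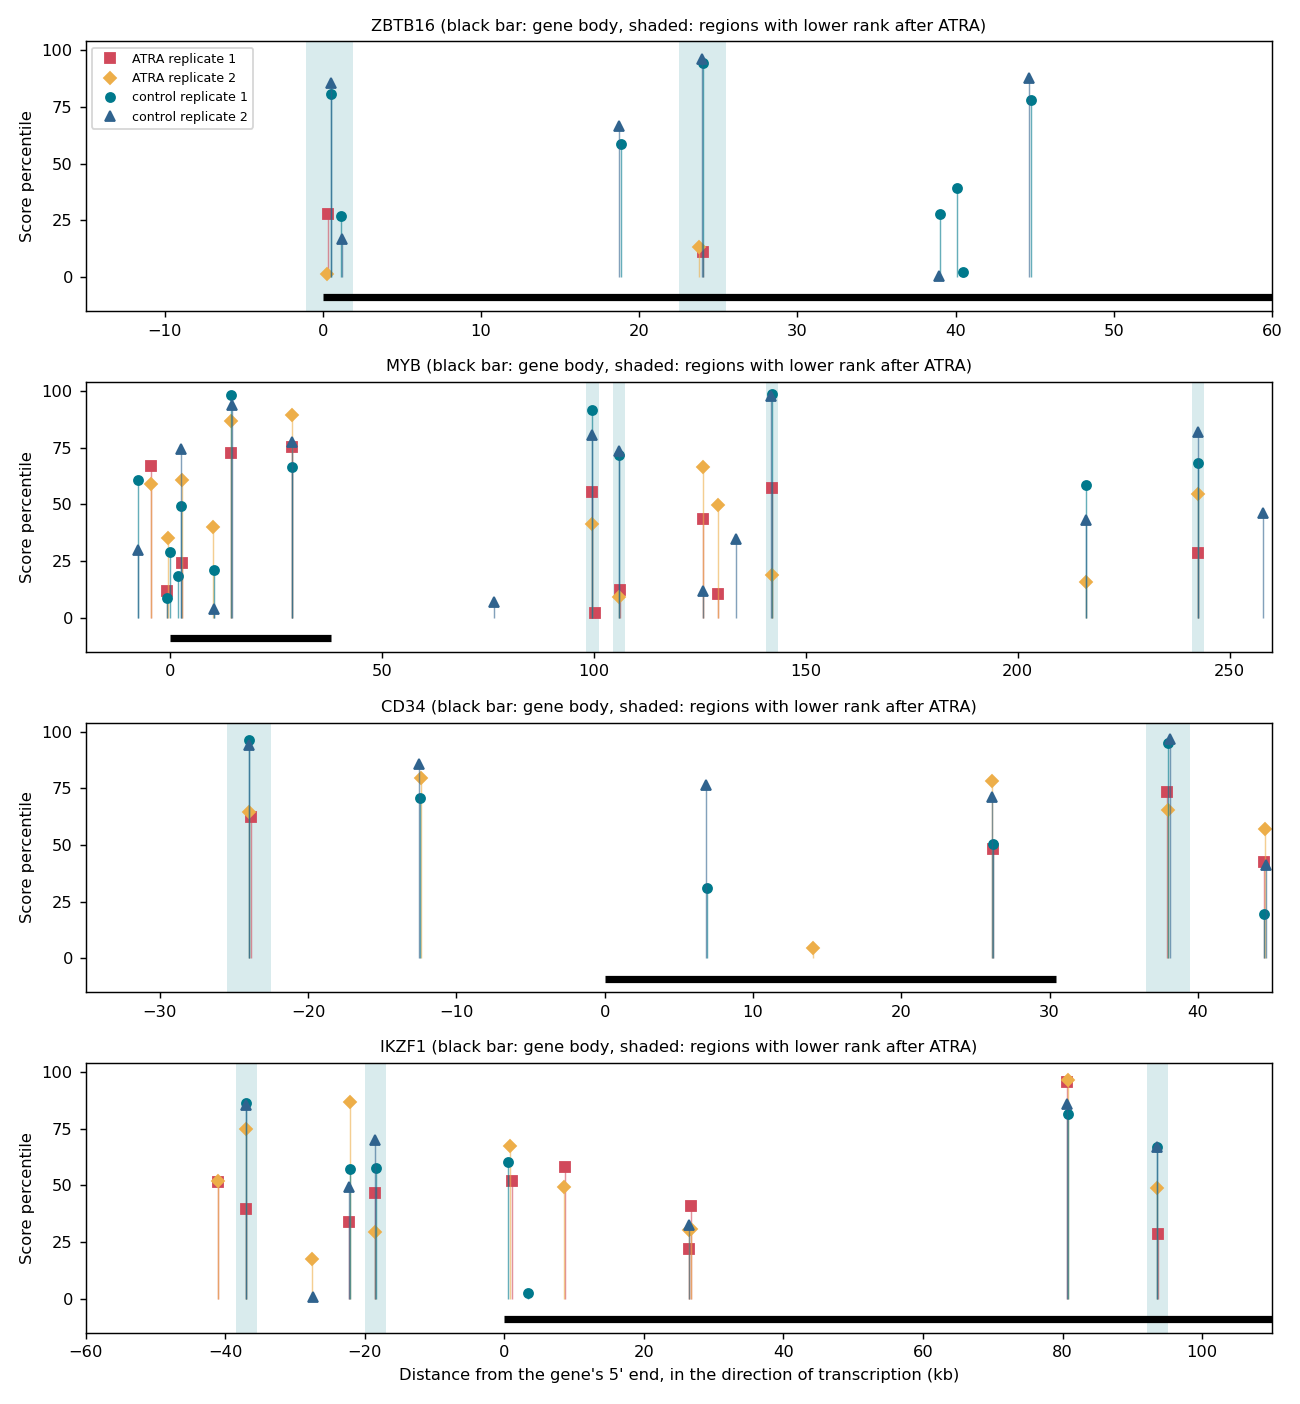
Score percentile of the highest peak per region and library (vertical axis) against distance from the gene's 5′ end in the direction of transcription (kb) at ZBTB16, MYB, CD34 and IKZF1. Shading is centred on regions with lower rank after ATRA (2, 4, 2 and 3 in these views), the black bar is the gene body, and a library without a symbol at a position had no peak there. At ZBTB16 the unshaded peaks are from control libraries only.

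In number, the other gene lists had few members, but a raised share of genes was not particular to the progenitor list. That share was 40% for progenitor, 33.3% for retinoid response, 16.7% for azurophil granule and 15.8% for myeloid transcription factor genes. For neutrophil maturation, cell cycle and ribosome biogenesis genes it was 9.09%, 3.70% and 4.76%. Members made up 4 of the 24 shared regions near retinoid response genes. Of 12 azurophil granule genes with a shared region, MPO and RNASE3 had 1 member each, and these regions lay 36680 and 33591 bp from a TSS. As many of the 12, MS4A3 and SERPINB1, had a region of higher rank. The member linked to MPO, the granule enzyme myeloperoxidase, lay in an intron of TSPOAP1, at 44.6 and 43.5 after ATRA against 62.6 and 54.8. Of 22 neutrophil maturation genes, 2 had a member and 7 a region of higher rank. One of these was linked to the integrin gene ITGB2, at 34.6 and 36.6 after ATRA against 70.3 and 60.8. Of 9 retinoid response genes, 3 had a member and 3 a region of higher rank. CYP26A1, the enzyme that degrades retinoic acid, had one 41946 bp from a TSS, at 82.4 and 83.4 against 95.4 and 97.3. CD38 had 2, of which the one 23848 bp upstream stood at 6.84 and 32.8 after ATRA and at 50.0 and 69.5 in the control cells. Of the 6 shared regions near CD38, 1 was of higher rank. PRAM1 had 1 member among its 3 shared regions, in an intron of HNRNPM, and the 2 others were of higher rank. These counts are small, and the 7.6% and 26.4% of all genes are the values to read them against.

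Of 27 cell cycle genes with a shared region, only RRM2 had a member, while 8 had a region of higher rank. RRM2 encodes the small subunit of ribonucleotide reductase, and the member was its promoter, at 64.1 and 57.9 after ATRA against 80.2 and 77.5. Of 21 genes of ribosome biogenesis and growth, GNL3 alone had a member, and 6 genes, GNL3 among them, had a region of higher rank. Of 19 myeloid transcription factor genes, RUNX1 (also in the progenitor list), KLF4 and FLI1 had members and 5 had a region of higher rank. The KLF4 promoter, at chr9:110251916-110252363, stood at 48.8 and 48.8 after ATRA and at 65.0 and 70.7 in the control cells. FLI1, an ETS factor, had a member in an intron, at 56.0 and 74.6 against 90.2 and 90.0.

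Most members stood alone. The 1092 members were nearest to 984 different genes, of which 893 had 1 member, 77 had 2 and 14 had at least 3. ZNRF1 had 4 members among 7 shared regions, with gaps from 10.1 to 67.9 points, and KLHL1 had 4 among 17. The 4 of 16 named for FAM27E3 lay 532002 to 964213 bp from its TSS, where the name is a position only. BCL2, the inhibitor of apoptosis, had 3 of 10, including a region in an exon (16.9 and 10.4 after ATRA, 66.9 and 63.6 in the control cells). That at chr18:60765456-60768667, 3212 bp wide, went from 98.9 and 98.7 in the control cells to 44.5 and 68.0. IKZF1 had 3 of 6, SLAIN1 3 of 4, KLF4 3 of 8 and CXCR4 3 of 14. Another member lay within 50 kb of 112 members (10.3%), compared with 7.30% of all shared regions. A region with peaks in both control lists and no ATRA list lay within 50 kb of 16.5% of the members and 14.3% of the shared regions. For regions of the ATRA lists only, the values were 32.3% and 30.5%.

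The share of members was unequal among the chromosomes. Among those with at least 100 shared regions, it was highest on chromosome 13, at 6.85% of 890, and lowest on chromosome 19, at 0.965% of 622. Chromosome 19 also had the highest share of regions with higher rank, 33.6%. Its shared regions had median percentiles of 87.8 and 88.9 in the ATRA libraries and of 76.4 and 63.0 in the control libraries, so they ranked higher after ATRA in both replicate numbers. They were GC-rich, with a median of 62.3%, and 67.7% of them were promoters. Outside promoters, 2.99% of the chromosome 19 regions were members, against 6.20% on the other chromosomes, and 32.8% were of higher rank, against 11.9%. Without the 6 members on chromosome 19 the promoter share of the members was 7.55% and their GATA share 34.5%. Whether the copy number or preparation of these libraries bears on chromosome 19 was not tested.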

How the data were processed

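ATAC-seq was measured in 4 libraries of HL-60 cells. Per the labels and methods, the authors lysed the cells, tagmented nuclei with Tn5, amplified the DNA by PCR, trimmed adapters, aligned reads to hg19 with Bowtie (Bowtie2 in the submitters' processing notes) and called peaks for each library with MACS2 at default settings. A Tn5 shift, duplicate removal or a blacklist is not given in the sources used here. The deposited lists give intervals with a peak score in column 5. The authors' score is at least 50 and at most 3100 in each list, its scale is not stated, and it was used here only as a rank. No read counts are in the lists, so depth is unknown and no error per region could be derived.

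Chromosome names and lengths matched GRCh37 (24 chromosomes, 0 missing, 0 peaks past an end). Percentiles used average ranks for ties, and the highest peak of each list stood for a region. The centre was the median of the midpoints of these peaks. Genes came from GENCODE release 44 lifted to GRCh37. Motif words were searched on both strands in 200 bp. Words that overlap were counted for each motif. Intervals of shares are 95% Wilson intervals, and that of the median GC content is a 95% binomial interval of the ranked values. Python 3.11.15, numpy 2.4.6, pandas 2.3.3, scipy 1.17.1, pysam 0.24.0, samtools 1.23.1 and matplotlib 3.10.9 were used, and scripts were tested on simulated lists.

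Groups and replicate numbers came from the sample titles. No test was run, because the regions were selected on the contrast between the groups. The regions and gene lists were chosen with earlier results of these data known. Named were the 20 members with the widest gaps, members within 50 kb of listed genes, those next to the margin and the genes with the most members. Other names were chosen after their values were seen. Alternatives covered the percentile, the margin, the merging of peaks, each library left out, the replicate block, the promoter and motif windows, and, added after seeing the data, regions outside promoters and without chromosome 19. A few items are not reported here.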

Additional observations from a re-analysis of the deposited data

How the results depend on the processing

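The members stayed poorer in promoters and GC and richer in GATA words than all shared regions under every alternative run. Their number and the sizes of these shares moved.

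Ranking among the shared regions only gave 2276 regions of lower rank, of which 29.8% had a GATA word. Of the regions chosen on replicate 1, 69.0% were then lower in replicate 2, and of those chosen on replicate 2, 66.1% were lower in replicate 1. All shared regions then stood at 50.3% and 49.6%, so the distance from them on replicate 1 hardly moved. On replicate 2 the distance narrowed, from 70.9% against 48.6% to 66.1% against 49.6%. With the same number of peaks from every list, 1768 regions were of lower rank and 27.4% of them had a GATA word. Of those chosen on replicate 1 and on replicate 2, 67.6% and 65.5% were lower in the other number. All shared regions stood at 48.5% and 49.8%. In both settings about equal numbers of regions were lower and higher after ATRA.

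A margin of 5 points gave 1697 regions, with 48.4% of those chosen on replicate 1 and 69.2% of those chosen on replicate 2 lower in the other number. A margin of 20 points gave 495 regions, a GATA share of 41.4%, and 55.2% and 75.4%. The replicate block, which asked for 10 points within each replicate number instead of between the extremes, gave 1819 regions with a GATA share of 30.2%. It contained all 1092 members. Motif windows of 400 and 100 bp gave GATA shares of 50.5% and 21.2%, against 27.3% and 7.42% of all shared regions.

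When 1 library at a time was left out, the number of regions lay between 2226 and 4760. The lowest number came without control replicate 2 and the highest without ATRA replicate 2. Leaving out ATRA replicate 1 gave 2561 and control replicate 1 gave 3009. The rule is easier to meet with 3 libraries. The GATA share ranged from 24.3% to 30.1%, the promoter share from 6.02% to 16.4% and the median GC content from 47.5% to 48.5%. The highest promoter share came without control replicate 2. Joining peaks within 100 bp gave 1098 regions and setting peaks to 200 bp gave 1053. Asking for 1 bp common to the highest peaks gave 1052, and leaving out regions at the score ceiling gave 1092. These alternatives moved no share or median GC content beyond its 95% interval, nor did leaving out chromosome 19. The number of regions has no interval.

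Depth is unknown, the scores have no stated scale, and with 2 libraries per group no error is given for a single region. ATRA replicate 2, with its longer list, affects every percentile comparison. Regions are neighbors and share libraries, so the intervals across them are too narrow as a measure of how the treatment would repeat.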
